A study of Mus musculus with 6 samples.

Results

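The 10 genes that help to tell forelimb from hindlimb were followed in mouse limb bud tips: the limb-type regulators Tbx5, Tbx4, Pitx1 and Isl1, and 6 genes of the HoxC cluster, Hoxc4, Hoxc5, Hoxc6, Hoxc9, Hoxc10 and Hoxc11. They were chosen by gene symbol, and all 10 of 10 had a row among the 12065 genes of the deposited table. RNA came from 6 pools of 2 embryos each. The 3 Meis2-overexpressing pools were HoxB6CreER;R26Meis2a-IRES-EYFP/Meis2a-IRES-EYFP, in which a tamoxifen-dependent Cre under HoxB6 control switches on Meis2a, with a fluorescent reporter, from the Rosa26 locus. The 3 control pools were R26Meis2a-IRES-EYFP/Meis2a-IRES-EYFP and carried both copies of the silent transgene without Cre. All dams received 0.8 mg of 4-hydroxytamoxifen at embryonic day 8.3, so the drug is common to both genotypes while Cre is not, and effects of Cre and of Meis2 cannot be told apart. Each genotype had 1 pool at 37, 1 at 38 and 1 at 39 somites. The labels name distal limb bud tips and do not say whether forelimbs, hindlimbs or both were taken. HoxB6-driven Cre lines are known to act in hindlimb mesenchyme and in the posterior part of the forelimb, so not every cell of a tip need carry raised Meis2.

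Forelimb and hindlimb buds are built by much the same signals but express different regulators. Tbx5 is a T-box transcription factor of the forelimb field, where it is required for the bud to start. Its close relative Tbx4 is a hindlimb gene, and Pitx1, a bicoid-type homeobox factor, gives the hindlimb its character and acts upstream of Tbx4. Isl1, a LIM homeobox factor, marks hindlimb progenitors before and during bud initiation. Hox genes along the trunk set where these fields form: genes at the 3′ end of the clusters, Hoxc4 and Hoxc5 among them, promote Tbx5 at forelimb level, and more 5′ HoxC genes are expressed at and behind the flank, with Hoxc10 and Hoxc11 typical of hindlimbs. Meis proteins are TALE homeobox partners that bind DNA together with Pbx and Hox proteins.

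The sequences behind the measurement bear on whether the 2 related T-box genes can be told apart by reads. The longest run of identical bases shared by any Tbx5 and any Tbx4 transcript of GENCODE M21 was 23 bases, shown here because the comparison of limb types rests on this pair (the whole run is identical, so no base is in capitals).
Tbx5 and Tbx4 shared run: cagctgaaaattgagaacaaccc
Of the 10 genes, 5 (Tbx4, Isl1, Hoxc4, Hoxc6 and Hoxc11) shared no stretch of 50 bases with a transcript of another gene. Tbx5 and Hoxc9 shared 0.368% and 1.44% of theirs. In the same annotation Hoxc5 and Hoxc10 share 166 exonic bases on 1 strand, which is 5.37% of the exonic length of Hoxc5 and 8.70% of that of Hoxc10. Reads from that stretch can be divided between them, which makes the low level of Hoxc5 the less certain of the pair. Pitx1 overlaps an antisense gene model, Gm47071, over 165 bases (6.21% of its exonic length) and a model on its own strand, Gm28760, over 108 bases. The TruSeq RNA v2 kit keeps no strand, so reads of Pitx1 and of Gm47071 in that stretch cannot be told apart.

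RefSeq promoters (250 bases before to 50 after the start, build GRCm38.p6) were at hand for 3 of the 10 genes, Tbx4, Isl1 and Hoxc4. Those of the hindlimb genes Tbx4 (chr11:85896515-85896814, plus strand) and Isl1 (chr13:116309639-116309938, minus strand) are shown because these hindlimb regulators differ widely in level, Tbx4 being among the highest and Isl1 the lowest of the genes below. Capitals mark matches to the 5 motifs searched.
Tbx4: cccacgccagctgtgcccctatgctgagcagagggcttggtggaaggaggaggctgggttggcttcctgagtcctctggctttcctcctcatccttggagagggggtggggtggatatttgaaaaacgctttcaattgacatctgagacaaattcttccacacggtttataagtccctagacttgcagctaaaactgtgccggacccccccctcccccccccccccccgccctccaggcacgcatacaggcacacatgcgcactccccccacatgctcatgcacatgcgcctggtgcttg
Isl1: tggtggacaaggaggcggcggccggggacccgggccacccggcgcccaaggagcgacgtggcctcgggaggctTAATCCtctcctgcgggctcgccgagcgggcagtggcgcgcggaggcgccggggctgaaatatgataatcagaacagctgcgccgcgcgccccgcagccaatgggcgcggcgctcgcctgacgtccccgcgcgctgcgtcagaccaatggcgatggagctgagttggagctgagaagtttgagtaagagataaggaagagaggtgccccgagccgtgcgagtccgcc
The motifs, each read on both strands, were the MEIS core TGACAG, the PBX-HOX motif TGATTNAT, the T-box half-site GGTGTGA, the bicoid-type motif TAATCC of PITX factors and the retinoic acid receptor half-site AGGTCA. The Tbx4 promoter held none of them. Isl1 held 1 bicoid-type match starting 177 bases before the start site, and Hoxc4 held 1 retinoic acid half-site, as TGACCT. Among all 32851 promoters of the table, 7.06% held the bicoid-type motif, 16.3% the retinoic acid half-site and 19.2% the MEIS core. These are matches of letters in a short window and say nothing of binding.

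A few facts of the whole series frame the values. Meis2 had 41.3, 33.4 and 28.2 CPM (read counts scaled by effective library size, as deposited) in overexpressing pools at 37, 38 and 39 somites, against 20.6, 15.3 and 13.8 CPM in control pools. It rose by 1.01 on the log2 scale (standard error, SE, 0.16; limma adjusted p = 0.0185), and the pools of the 2 genotypes did not overlap. The adjusted p of Meis2 was above the threshold in 4 of 16 alternatives, among them the fits without control replicate 2 (0.0681), without control replicate 3 (0.0693) and without overexpressing replicate 2 (0.0651). All 8 limb mesenchyme markers fixed for the check, such as Prrx1 and Lhx2, were measured, with a sum of 1278 to 1338 CPM in overexpressing pools and 1057 to 1162 CPM in control pools. Like that sum, those of the ectoderm and ridge, erythroid, endothelial, and nerve and neural crest markers did not overlap between the genotypes. The sums of macrophage, muscle precursor, and somite and flank markers did overlap. All 15 ectoderm and ridge markers were lower in overexpressing pools and 6 of them fell. With the somite number as a term 7 were called, and on 5 libraries 4 by edgeR and 5 by DESeq2. Their sum was 424 to 473 CPM in overexpressing pools, against 594 to 620 CPM in controls. The 8 erythroid markers summed to 4008 to 4780 CPM in overexpressing pools, against 2327 to 3405 CPM in controls, and 2 of them rose (4 with the somite number as a term, 0 by edgeR and 1 by DESeq2 on 5 libraries). The 8 endothelial markers summed to 304 to 324 CPM in overexpressing pools, against 249 to 272 CPM in controls, and 1 rose. The part of these tissues in the values below was not tested. In bulk RNA, fewer cells of a type and less RNA per cell cannot be told apart.

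Genes of both limb types were measured in every library. The hindlimb regulators Tbx4 and Pitx1 stood above the forelimb regulator Tbx5 in all 6 libraries. On the scale of CPM per kb of exon, which allows levels of different genes to be compared, Pitx1 had 23.6 ± 4.95 (SD, n = 3) in overexpressing pools and 20.5 ± 0.684 in control pools. Tbx4 had 22.4 ± 3.38 CPM per kb in overexpressing and 19.6 ± 1.60 in control pools, and Hoxc10 22.9 ± 2.39 in overexpressing and 23.1 ± 3.80 in control pools. These 3 hindlimb genes were the highest of the 10 and did not differ from each other beyond their spread. Hoxc11 followed with 11.5 ± 1.89 CPM per kb in overexpressing pools and 9.86 ± 1.07 in control pools, and Tbx5 with 8.08 ± 0.564 in overexpressing and 7.22 ± 1.57 in control pools.

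The remaining genes were far lower on that per-length scale. Hoxc9 had 2.73 ± 0.184 CPM per kb in overexpressing pools and 3.29 ± 0.121 in control pools, and Hoxc6 had 2.35 ± 0.349 in overexpressing and 2.46 ± 0.508 in control pools. Hoxc5 (1.51 ± 0.0382 in overexpressing and 1.64 ± 0.398 in control pools) and Hoxc4 (1.27 ± 0.113 in overexpressing and 1.44 ± 0.153 in control pools) overlapped in the controls. Isl1 was the lowest, at 0.587 ± 0.179 CPM per kb in overexpressing pools and 0.571 ± 0.350 in control pools. In control pools the highest and the lowest of the 10 were 40.4-fold apart. With the longest transcript as the length instead of all exonic bases, Hoxc6 (3.59 in overexpressing and 3.75 in control pools) stood above Hoxc9 (2.80 in overexpressing and 3.37 in control pools).

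**Figure D1:**
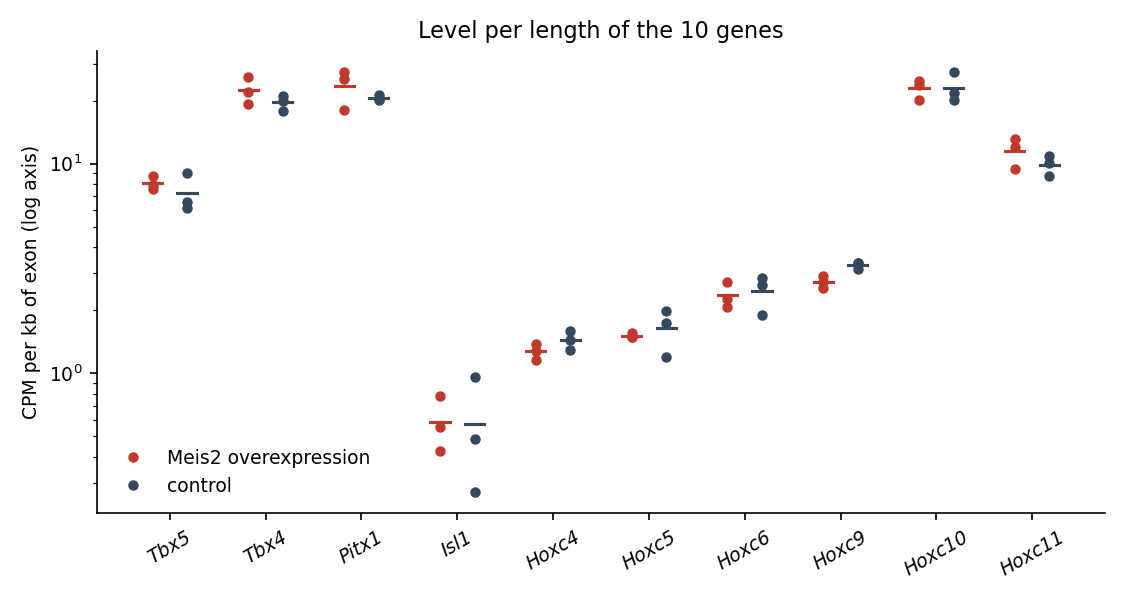
Level of each gene in CPM per kb of exon on a log axis, with overexpressing pools in red to the left of control pools in dark blue, 1 point per pool and a line at the mean of 3. Hoxc10, Pitx1 and Tbx4 lie near 20 in both genotypes, Tbx5 near 8, and Isl1 under 1 in every pool.

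Whether raised Meis2 alters limb-type or HoxC expression in the tips was asked gene by gene. None of the 10 genes passed the test between genotypes (limma on log2(CPM + 1), adjusted over all 12065 genes, adjusted p = 0.356 to 0.990), where 1.47% of all genes passed, 0.787% as higher and 0.68% as lower. Adding the somite number as a term left the count at 0 of 10, against 2.82% of all genes. At an unadjusted p under 0.05 the count was also 0 of 10, against 15.9% of all genes. It was 0 of 10 with edgeR and with DESeq2 as well, each run on the reads of 5 libraries, where 1.36% and 1.89% of all genes passed. By sign 5 were higher and 5 lower in overexpressing pools, and their median log2 fold change was 0.04, beside -0.00012 for all genes. All 10 of the 95% intervals included 0. Leaving out Isl1, whose interval was the widest, the intervals of the other 9 lay between -0.50 and 0.49 on the log2 scale. These ends are 0.707-fold and 1.41-fold of control on the log2(CPM + 1) scale, which understates changes of low genes. A miss of the threshold does not show that levels were equal. The outer ends of these intervals are not a limit of detection, and each interval holds for 1 gene, not for the 9 together. The median SE of the 10 was 0.13, against 0.093 for all genes. The same fit called Kdr, an endothelial receptor, at 0.46 with a smaller SE of 0.08 (limma adjusted p = 0.0189). En1, an ectoderm marker, was not called at -0.47 with an SE of 0.15 (limma adjusted p = 0.169). A change of that size in 1 of the 10 need not have been called.

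**Figure D2:**
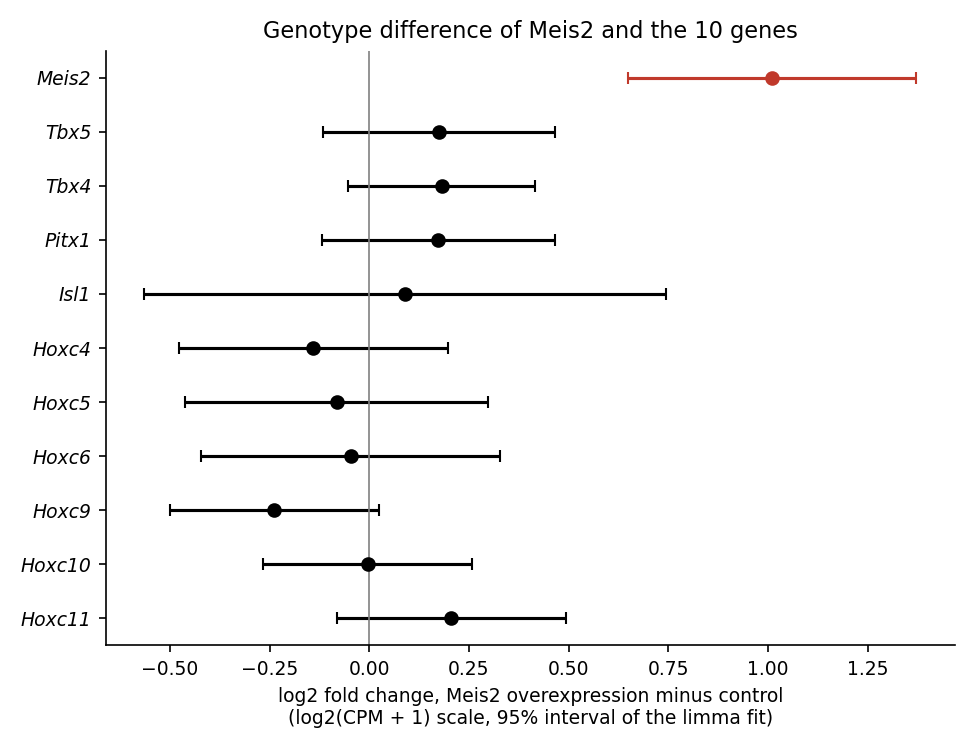
Log2 fold change of Meis2 (red) and of the 10 genes (black) between overexpressing and control pools, with the 95% interval of the limma fit. Meis2 stands at 1.01, and the interval of every other gene includes 0, that of Isl1 being the widest (-0.56 to 0.75).

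Tbx5, the forelimb regulator, had 40.7, 37.0 and 35.6 CPM in overexpressing pools at 37, 38 and 39 somites, against 42.1, 28.6 and 30.5 CPM in control pools. The 37-somite pool was the highest in both genotypes, and the genotypes overlapped. The log2 fold change was 0.17 (SE 0.13, 95% interval -0.12 to 0.47, limma adjusted p = 0.532). It depended on single control pools, at 0.34 (limma adjusted p = 0.132) with the 37-somite control left out, 0.069 with the 38-somite one left out and 0.11 with the 39-somite one left out.

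Tbx4, its hindlimb relative, had 65.5, 88.3 and 74.5 CPM in overexpressing pools, against 60.8, 71.5 and 67.6 CPM in control pools. In both genotypes the pool at 38 somites was the highest and that at 37 somites the lowest, and at each stage the overexpressing pool was the higher by 0.11, 0.30 and 0.14 on the log2 scale. The genotypes overlapped, and the difference of 0.18 (SE 0.11, interval -0.05 to 0.42) did not pass (limma adjusted p = 0.429). Over 16 alternatives it stayed positive and was never called. It was highest, at 0.28, with the 37-somite overexpressing pool left out, lowest, at 0.070, with the 38-somite one left out, and 0.12 with the 37-somite control left out.

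Pitx1, which acts upstream of Tbx4, had 47.8, 72.9 and 67.2 CPM in overexpressing pools and 53.9, 56.6 and 53.2 CPM in control pools. The control pools were close together, while the 37-somite overexpressing pool was the lowest of all 6 and the 38- and 39-somite ones the highest. The difference of 0.17 (SE 0.13, interval -0.12 to 0.47) did not pass (limma adjusted p = 0.536). With the 37-somite overexpressing pool left out it was 0.35 (limma adjusted p = 0.0618). It was 0.054 with the 38-somite and 0.11 with the 39-somite overexpressing pool left out.

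Isl1, the early hindlimb regulator, was near the lower edge of the deposited table, in which every gene reached at least 2.00 CPM in 3 libraries. It had 3.09, 1.68 and 2.20 CPM in overexpressing pools, against 3.79, 1.92 and 1.08 CPM in control pools. Its mean level was above that of only 2.19% of the genes in the table. The values rest on 33 and 13 reads in overexpressing replicates 1 and 2 and on 40, 22 and 9 reads in control replicates 1 to 3. For the last, an exact Poisson interval of 95% ran from 0.493 to 2.05 CPM and covers counting error only. The 37-somite pool was the highest in each genotype, the genotypes overlapped, and the log2 fold change was 0.09 (SE 0.29, limma adjusted p = 0.904). Without control replicate 3 it was -0.19 and without overexpressing replicate 1 it was -0.07, so its direction is set by single pools.

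The 3′ HoxC genes, which belong to the forelimb and neck levels of the trunk, were low in both genotypes. Hoxc4 had 3.27, 2.98 and 3.56 CPM in overexpressing pools, against 3.31, 4.10 and 3.71 CPM in control pools. These rest on 23 to 47 reads in the 5 libraries with recovered reads. Hoxc4 was lower in the overexpressing pool at each stage, by -0.02, -0.46 and -0.06 on the log2 scale, and the genotypes overlapped (log2 fold change -0.14, SE 0.15, limma adjusted p = 0.673). The difference was -0.091 with the 38-somite overexpressing pool left out and -0.081 with the 38-somite control left out.

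Hoxc5 had 4.58, 4.79 and 4.59 CPM in overexpressing pools, against 5.40, 6.11 and 3.71 CPM in control pools. Hoxc6 had 5.42, 6.60 and 4.98 CPM in overexpressing pools and 6.35, 6.89 and 4.55 CPM in control pools. For both genes the 39-somite control pool was the lowest of the 6, and the overexpressing pools lay inside the range of the controls. The log2 fold changes were -0.08 (SE 0.17) for Hoxc5 and -0.05 (SE 0.17) for Hoxc6, with limma adjusted p = 0.842 and 0.915. Without control replicate 2 both turned positive, at 0.042 and 0.055.

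Among the 5′ HoxC genes, Hoxc9 was the 1 gene of the 10 whose genotypes did not overlap. It had 7.11, 6.22 and 6.60 CPM in overexpressing pools, against 8.14, 8.20 and 7.67 CPM in control pools. Every overexpressing pool was below every control pool, as was so for 10.4% of all genes (20.7% did not overlap in either direction). That count of 1 in 10 is near this background. The log2 fold change of -0.24 (SE 0.12, interval -0.50 to 0.02) had the smallest p of the 10 and did not pass (unadjusted p = 0.0701, limma adjusted p = 0.356). In 16 alternatives it stayed between -0.28 and -0.16 and was never called.

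Hoxc10, the hindlimb HoxC gene with the highest level, had 38.5, 47.1 and 45.5 CPM in overexpressing pools, against 38.3, 52.2 and 41.7 CPM in control pools. The 37-somite pool was the lowest in each genotype and the 38-somite pool the highest. Its log2 fold change was -0.0038 (SE 0.12, interval -0.27 to 0.26, limma adjusted p = 0.990).

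Hoxc11 had 19.1, 26.5 and 24.2 CPM in overexpressing pools, against 21.9, 20.3 and 17.6 CPM in control pools. As with Pitx1, the overexpressing pool was the lower at 37 somites (-0.20 on the log2 scale) and the higher at 38 and 39 somites (0.38 and 0.46). The log2 fold change over all pools was 0.21 (SE 0.13, interval -0.08 to 0.49, limma adjusted p = 0.461). It was 0.34 (limma adjusted p = 0.178) with the 37-somite overexpressing pool left out, 0.11 with the 38-somite one left out and 0.12 with the 39-somite control left out. Hoxc8, which lies between the 3′ and 5′ members and is not among the 10, had 10.3, 8.29 and 8.66 CPM in overexpressing pools, against 9.66, 9.51 and 10.1 CPM in control pools (log2 fold change -0.10, SE 0.12). Hoxc12, Hoxc13 and the HoxC antisense RNA Hotair had no row under these symbols in the deposited table and were not analysed.

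**Figure D3:**
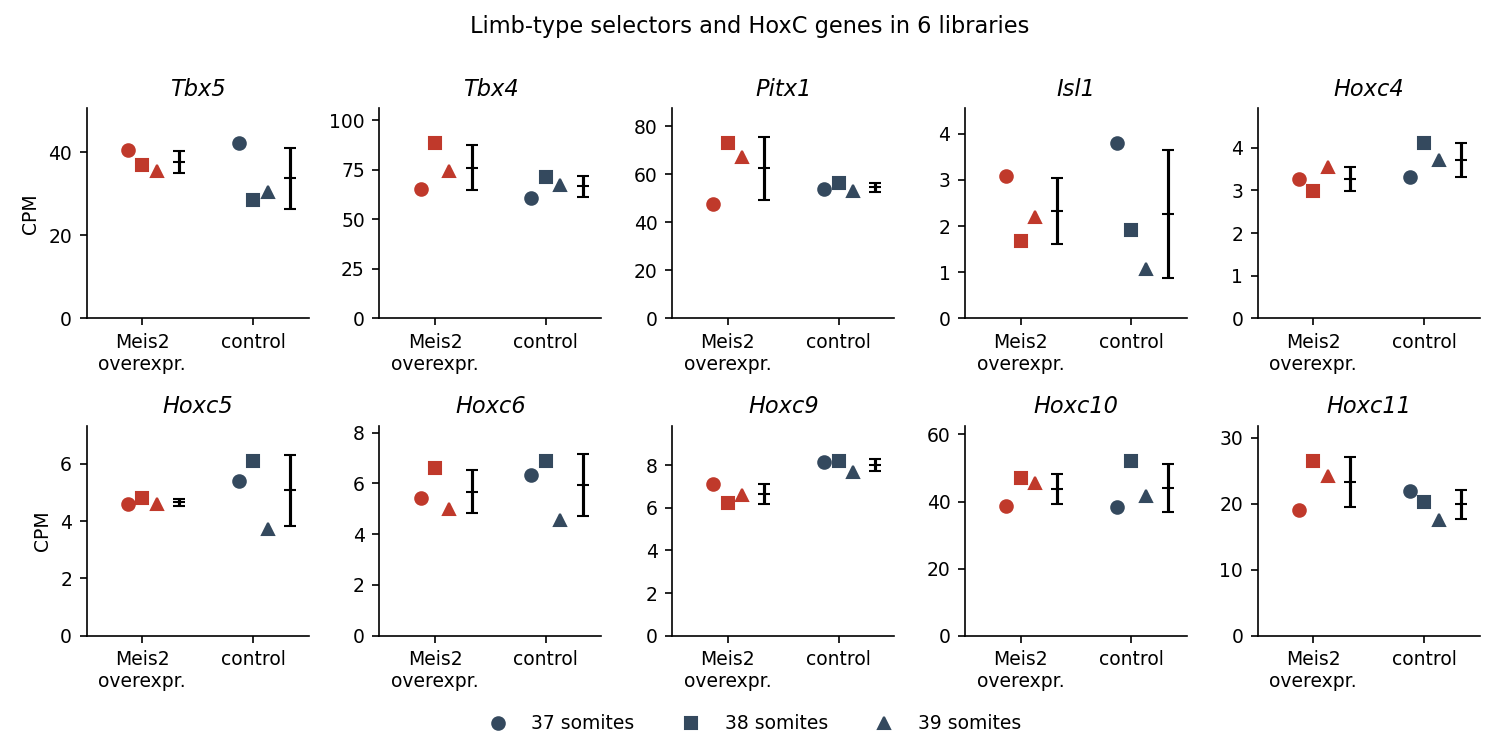
CPM of each gene in every pool, with overexpressing pools (red) left of control pools (dark blue), symbols for 37, 38 and 39 somites, and black bars for the mean ± SD of 3. The genotypes overlap for 9 genes, and for Hoxc9 every overexpressing pool (6.22 to 7.11) lies below every control pool (7.67 to 8.20).

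The balance between the limb types was read within each library as a ratio of 2 genes, which does not depend on how libraries are scaled. Tbx4 over Tbx5 was 1.61, 2.38 and 2.09 in overexpressing pools at 37, 38 and 39 somites, against 1.44, 2.50 and 2.21 in control pools. On the log2 scale it averaged 1.00 ± 0.29 in overexpressing pools and 1.00 ± 0.42 in control pools (SD, n = 3 each), a difference of 0.0036. Pitx1 over Tbx5 was 1.17, 1.97 and 1.89 in overexpressing pools, against 1.28, 1.98 and 1.74 in control pools, with log2 means of 0.71 ± 0.41 in overexpressing and 0.71 ± 0.32 in control pools and a difference of -0.0040. The spread between pools of a genotype includes differences between stages. Both differences between genotypes were smaller than that spread, and no test was made of these ratios. They depended on which pools were averaged: with 1 pool left out, the difference in Tbx4 over Tbx5 ran from -0.23 (37-somite control left out) to 0.17 (38-somite control left out). That in Pitx1 over Tbx5 ran from -0.18 (37-somite control left out) to 0.23 (37-somite overexpressing pool left out).

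The ratios set the 37-somite pools apart, and did not separate 38 from 39 somites. The 37-somite pool had the lowest Tbx4 over Tbx5 and the lowest Pitx1 over Tbx5 in each genotype. Averaged over both genotypes, the log2 ratio of Tbx4 to Tbx5 was 0.61 at 37 somites, 1.29 at 38 and 1.11 at 39 somites. Of the reads of the pair, Tbx4 took 61.7% (95% exact binomial interval 58.8 to 64.5) in the overexpressing pool and 59.1% (56.1 to 62.0) in the control pool at 37 somites. At 38 somites it took 70.5% (67.5 to 73.3) in the overexpressing pool and 71.4% (68.7 to 74.0) in the control pool. The intervals at 37 and 38 somites did not overlap in either genotype. At 39 somites, where only the control pool had recovered reads, Tbx4 took 68.9% (65.6 to 72.0), which overlaps the control interval at 38 somites. These intervals cover counting error only, and each stage had 1 pool a genotype, so a stage and the embryos of its pool cannot be told apart.

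The HoxC genes were read in the same way. The sum of Hoxc9, Hoxc10 and Hoxc11 over the sum of Hoxc4, Hoxc5 and Hoxc6 was 4.87, 5.56 and 5.81 in overexpressing pools, against 4.53, 4.72 and 5.59 in control pools. It was lowest at 37 and highest at 39 somites in each genotype, whereas Tbx4 over Tbx5 and Pitx1 over Tbx5 were highest at 38 somites. The overexpressing pool was the higher at each stage, by 0.10, 0.24 and 0.06 on the log2 scale. The log2 means were 2.43 ± 0.13 in overexpressing and 2.30 ± 0.16 in control pools, a difference of 0.13. Each SD spans pools of different somite stages and so includes differences between stages. No test was made of this ratio.

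**Figure D4:**
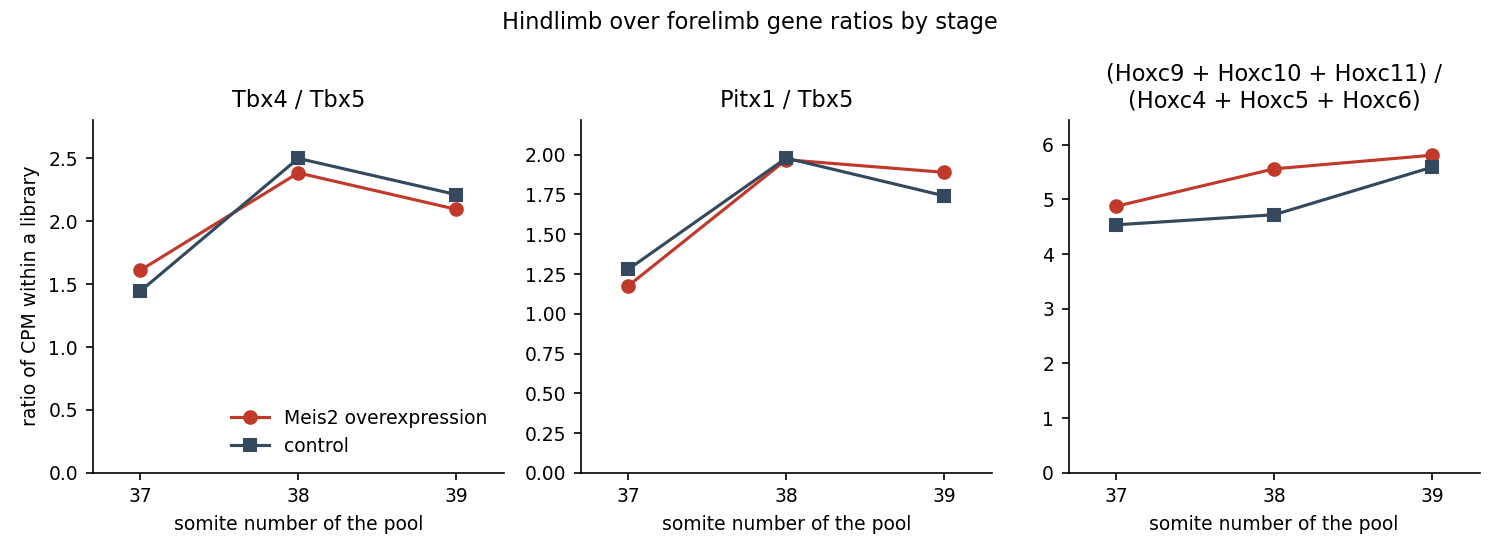
Ratio of CPM within each library against the somite number of the pool, with overexpressing pools in red and control pools in dark blue, 1 pool a point. In the first and second panels both lines lie lowest at 37 somites (1.61 in the overexpressing and 1.44 in the control pool for Tbx4 over Tbx5) and close to each other at each stage.

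Fitted gene by gene with genotype and somite number, no slope of the 10 passed (limma, adjusted over all genes), where 0.356% of all genes passed. At an unadjusted p under 0.05 there were 2 of 10, against 6.28% of all genes. These were Tbx5, at -0.16 per somite (SE 0.06, unadjusted p = 0.0309, limma adjusted p = 0.687), and Isl1, at -0.39 (SE 0.14, unadjusted p = 0.0166, limma adjusted p = 0.520). Tbx4 and Pitx1 had slopes of 0.08 and 0.12 per somite, Hoxc10 one of 0.09 and Hoxc11 one of 0.0072. An interaction of genotype and somite number, added after the pattern of Pitx1 and Hoxc11 was seen, called 0 of the 10 and 0% of all genes with limma. At an unadjusted p under 0.05 it gave 1 of the 10, Hoxc11 (0.31, SE 0.14, unadjusted p = 0.0480), against 1.99% of all genes.

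Profiles over the 6 libraries were compared with those of 41 other limb and Hox transcription factors, as the root mean square distance between log2 values centred on each gene's mean. Tbx4 lay nearest to Pitx1 (0.10), Pitx1 to Hoxc11 (0.10) and Hoxc11 to Pitx1 (0.10). The next nearest were close behind, Tbx15 for Tbx4 (0.12) and Prrx2 for Hoxc11 (0.10). Hoxc5 and Hoxc6 were each other's nearest (0.09). Tbx5 lay nearest to Prrx2 (0.15), Isl1 to Hoxd3 (0.22), Hoxc4 to Lhx9 (0.09), Hoxc9 to Msx2 (0.08) and Hoxc10 to Twist1 (0.10). For comparison, the median distance from Tbx4 to the 41 genes was 0.23, and genes that hardly vary lie near each other by construction.

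Genes around these regulators did include changes. Of the 4 other T-box genes of the limb, Tbx18, also known for keeping the polarity of somites, rose and 3 did not pass. Tbx18 averaged 29.9 ± 8.58 CPM in overexpressing pools and 9.62 ± 1.90 CPM in control pools. Its log2 fold change of 1.52 (SE 0.20, limma adjusted p = 0.00655) compares with 0.17 for Tbx5 and 0.18 for Tbx4 in the same T-box family. Tbx15 (0.22), Tbx3 (0.10) and Tbx2 (0.07) did not pass.

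Of 18 measured genes of limb initiation and outgrowth, 1 rose, 1 fell and 16 did not pass, with a median log2 fold change of 0.03. With the somite number as a term 3 passed, the third being Shox2, a homeobox gene of the proximal limb skeleton. Shox2 had 139, 112 and 61.8 CPM in overexpressing pools, against 67.2, 39.3 and 26.1 CPM in control pools. Its log2 fold change of 1.24, the largest of the list, had a limma adjusted p of 0.113 without that term and 4.9e-05 with it. The gene that rose was Zbtb16, a zinc finger regulator of limb skeletal patterning, at 21.3 ± 3.44 CPM in overexpressing pools and 12.7 ± 2.05 CPM in control pools (limma adjusted p = 0.0409). The gene that fell was Fgf8, the ridge signal, at 56.5 ± 10.2 CPM in overexpressing pools and 94.6 ± 5.35 CPM in control pools (limma adjusted p = 0.0114), in the same pools in which all 15 ectoderm and ridge markers were lower. Fgf10, the mesenchymal signal that Tbx5 acts upstream of in the forelimb, was at -0.06 (SE 0.06) on the log2 scale and did not pass (limma adjusted p = 0.655).

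Set beside the other Hox clusters, no gene of the 7 measured HoxC, 9 HoxA, 8 HoxD or 2 HoxB genes passed, and the median log2 fold changes were -0.08, 0.0037, 0.08 and -0.17. That count held for the fit with genotype alone, where 1.47% of all genes passed. With the somite number as a term, where 2.82% of all genes passed, 1 HoxA and 3 HoxD genes passed and no HoxC or HoxB gene. These were Hoxa13 (-0.78, limma adjusted p = 0.00316), Hoxd13 (-0.74, limma adjusted p = 0.000371), Hoxd12 (-0.38, limma adjusted p = 0.0270) and Hoxd9 (0.51, limma adjusted p = 0.0106). On 5 libraries DESeq2 called 2 HoxD genes and edgeR 0, and neither called a HoxC gene. The HoxC genes, Hoxc8 included, lay between -0.24 and 0.21. In paralog group 9, Hoxc9 had -0.24 (SE 0.12), beside 0.04 (SE 0.05) for Hoxa9 and 0.51 (SE 0.13, limma adjusted p = 0.0979) for Hoxd9. In group 11, Hoxc11 had 0.21 (SE 0.13), beside 0.06 (SE 0.07) for Hoxa11 and -0.30 (SE 0.09, limma adjusted p = 0.153) for Hoxd11. Differences between paralogs were not tested. Hoxb9 and Hoxb7, the HoxB genes with a row, were at -0.24 and -0.10.

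**Figure D5:**
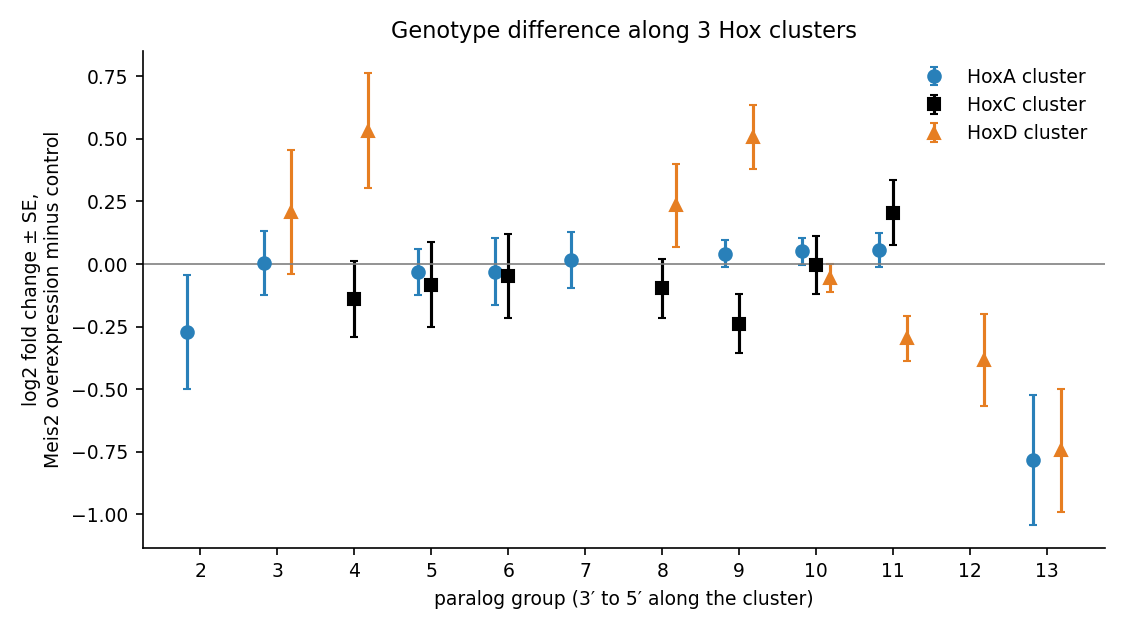
Log2 fold change ± SE (overexpressing minus control pools) of measured HoxA, HoxC and HoxD genes by paralog group, 3′ to 5′. The HoxC genes lie between -0.24 and 0.21, while Hoxa13 and Hoxd13 stand lowest at -0.78 and -0.74, and no gene shown passed the test with genotype alone. With the somite number as a term Hoxa13, Hoxd13, Hoxd12 and Hoxd9 passed.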

How the data were processed

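Per the labels, RNA of 6 pools was made into TruSeq RNA v2 libraries. The submitters' processing notes name NCBIM37, cutadapt 1.2.1, RSEM 1.17 and edgeR. The authors deposited CPM on an effective library size, and the low-count filter is not given in the sources used here. In 5 libraries 100% of values lay within 0.001 of whole multiples of 1 step, which gave 7622698 to 11542191 recovered reads. Overexpressing replicate 3 had 15395447 steps but only 39 values within 20 steps, so it stayed out of count tests.

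Genotypes were compared with limma 3.58.1 (eBayes with a trend) on log2(CPM + 1), two-sided, with Benjamini-Hochberg adjustment over 12065 genes at 0.05. This scale understates changes of low genes. All genes, the 10 members among them, passed the filter of 1 CPM in 3 libraries. An exact test of 3 pools against 3 cannot go below 0.1. The limma p-values rest on the spread between these pools, which differ in stage. In them each gene's variance is drawn toward that of genes of like level. edgeR 4.0.16 and DESeq2 1.42.0, chosen as 5-library fits after seeing the data, were alternatives. The fit was checked on simulated counts with the same spread setting for every gene. That check does not show how the fit performs on these pools. Lengths and overlaps came from GENCODE M21 on GRCm38, not the authors' build.

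Members and lists were chosen with earlier results of these data known. The members, Meis2, Hoxc8, up to 4 called genes of a list (or the 2 with the smallest p) and each member's nearest transcription factor were named. Tbx2, Tbx3, Tbx15, Shox2, Fgf4, Fgf10, Sp8, En1, Hoxa9, Hoxa11, Hoxd12, Hoxd13 and Prrx1 were added after their values were seen.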

Additional observations from a re-analysis of the deposited data

How the results depend on the processing

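No member was called in any of 16 alternatives to the genotype fit (15 for Isl1, Hoxc4 and Hoxc5, which a filter of 5 CPM removed), and no slope of a member in its 9. Tbx5, Tbx4, Pitx1, Hoxc4, Hoxc9 and Hoxc11 kept their direction in all of theirs. With each library left out in turn, the log2 fold change ran from -0.19 to 0.41 for Isl1, from -0.25 to 0.042 for Hoxc5, from -0.20 to 0.055 for Hoxc6 and from -0.10 to 0.12 for Hoxc10; DESeq2 gave 0.0041 for Hoxc6. The count of all genes called was 177 in the main fit, 86 with robust eBayes without a trend, 340 with somite number as a covariate and 56 to 162 with a library left out. Leaving out the 38-somite control pool gave 90 genes and leaving out the 39-somite control pool 64, while the overexpressing pools at 37 and 38 somites gave 115 and 56 when left out. With the replicate block it was 258, and no member was called. Over all genes, deviations of same-numbered pools (the same somite stage) correlated at 0.03, -0.15 and 0.38, and not every pool correlated best with its own number. With 3 pools a genotype this cannot decide whether the pools pair by stage. Both fits with a stage term called more genes than the main fit (340 and 258 against 177). The causes were not tested. edgeR and DESeq2 on all 6 libraries were not run, since reads of overexpressing replicate 3 could not be recovered with the same certainty. Depth limits Isl1, Hoxc4, Hoxc5 and Hoxc6 most, where 3 reads are worth 0.262 to 0.388 CPM in the 5 libraries with recovered reads.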

Other observations

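Marker lists of tissues around the limb mesenchyme gave these log2 fold changes, overexpressing minus control. Called genes of the ectoderm and ridge list were Epcam (-0.57), Cdh1 (-0.50), Trp63 (-0.48), Perp (-0.48), Fgf4 (-0.83) and Sp8 (-0.49). The erythroid list gave Slc4a1 (0.65) and Hba-x (0.69), the endothelial list Kdr (0.46) and the limb mesenchyme list Lmx1b (0.46). Each had a limma adjusted p under 0.05. No gene was called among 2 macrophage markers (Cx3cr1 at 0.23, Csf1r at -0.18), 3 nerve and neural crest markers (Erbb3 at -0.32, Tubb3 at -0.27), 2 muscle precursor markers (Chrna1 at -0.36, Met at 0.31) or 2 somite and flank markers (Meox1 at -0.35, Foxc2 at -0.22). In the HoxA cluster Hoxa13 (-0.78) and Hoxa2 (-0.27) are named by the same rule, and neither passed with genotype alone. Hoxa13 passed with the somite number as a term (limma adjusted p = 0.00316), as did Prrx1 of the limb mesenchyme list (0.37, limma adjusted p = 0.0152).

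Other limb genes passed the test for stage, which none of the members did. The slope per somite passed for Shox2 at -0.62 (limma adjusted p = 0.00127), Hoxd13 at 0.46 (0.00177) and Hoxa13 at 0.47 (0.0159). Hoxd13 was higher at each later stage in both genotypes, at 260, 381 and 503 CPM in overexpressing pools and 433, 677 and 803 CPM in control pools.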
